A study of Drosophila melanogaster with 19 samples.

Results

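The genes described here are markers of Drosophila haemocytes, the blood cells of the fly, together with genes of the basement membrane, the extracellular matrix sheet under epithelia. They were followed in the notum, the dorsal thoracic epithelium that forms sensory bristles, in pupae at 16 h after puparium formation. Of 31 listed genes, 30 had a probe set that names only that gene, out of 11982 genes so named on the Affymetrix array. For Mmp1, a secreted matrix metalloproteinase, no such probe set was used here. The 30 genes had 43 probe sets, and the 5 genes with several (trol, Pxn, Pvf3, Mmp2 and Timp) were represented by the one with the highest mean signal.

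All flies carried the sca-Gal4 driver and the temperature-sensitive repressor tub-Gal80ts. Crosses were kept at 18°C and moved to 29°C for the last 6 h, and each sample pooled 8 to 12 notums. The groups differed in the UAS transgene. Achaete with Senseless (Ac+Sens) had 3 arrays, Achaete (Ac) 2, Senseless (Sens) 3, Asense with E(spl)m3-HLH (Ase+E(spl)m3-HLH) 2, Asense (Ase) 3, E(spl)m3-HLH 3, and nuclear GFP, the control, 3. Ac and Ase are proneural bHLH activators, Sens is a zinc finger factor of sensory organ precursors, and E(spl)m3-HLH is a bHLH repressor downstream of Notch. The sca regulatory sequences drive the transgenes, while the RNA is that of dissected notums, in which haemocytes or fat body attached to the tissue may be present. In such bulk samples fewer cells of a type and less RNA per cell cannot be told apart.

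Haemocytes comprise plasmatocytes, which engulf dead cells and microbes, crystal cells, which carry the prophenoloxidases of melanisation, and lamellocytes, which encapsulate parasites. The GATA factor Serpent specifies the blood lineage and the Runx factor Lozenge the crystal cells. The basement membrane is built from collagen IV, laminin, perlecan and nidogen, and in the fly much of its collagen IV is made by fat body and haemocytes and reaches other tissues through the haemolymph.

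Values are log2 signals of probe sets, so that 1 unit is a doubling, and a difference is a log2 difference. On 4 arrays (replicate 3 of Ac+Sens, Sens, Ase and E(spl)m3-HLH) 60.3 to 60.6% of probe sets are listed at exactly 0, and these were treated as missing. Measured on all 19 arrays were 17 of the 30 genes, while 11 (lz, eater, Sr-CI, Hml, He, Nplp2, PPO1, PPO2, PPO3, Pvf3 and Tig) were listed at 0 on all 4 of those arrays. NimC1 and Mmp2 were listed at 0 on 3 of them and had a value on Ac+Sens replicate 3. Ase+E(spl)m3-HLH replicate 2 stood apart from the other arrays, with a median Spearman correlation of 0.890 with them, against 0.964 to 0.987 for the other 18. On the array labelled Sens replicate 1, sens was at 7.38, against 10.75 and 10.76 on the other Sens arrays and 7.15 to 7.55 in GFP, so that it went against its label. The proneural gene sc was at 10.63 on that array, against 7.17 and 6.84 on the other Sens arrays, 10.37 and 10.42 in Ac and 6.95 to 7.28 in GFP. Where leaving out Ase+E(spl)m3-HLH replicate 2 ended a call or moved a value by much, the value without it is given. For the array labelled Sens replicate 1 this was done for values of Sens. Leaving that array out also ended the calls of Pvr, Nplp2, Lar, btl and ara reported below, through the spread shared by all groups. Leaving out an array of a group of 2 leaves 1, whose spread is taken from the other groups.

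Each of the 6 transgene groups was set against GFP, each pair of factors against its single factors, and interactions were tested, all in limma over 18769 probe sets. A gene was called at an adjusted p under 0.05, and the p-values measure the spread between these pooled samples. Against GFP, 1 of the 30 genes was called in Ac+Sens and 1 in Ase, in both cases NimC1 and in both cases higher. Over all probe sets 0.773% were called in Ac+Sens (0.506% as higher) and 1.24% in Ase (1% as higher). An unadjusted p under 0.05 was found for 4 of the 30 genes in Ac+Sens and for 5 in Ase. No gene of the 30 was called in Ac (3 had an unadjusted p under 0.05), Sens (3), Ase+E(spl)m3-HLH (7) or E(spl)m3-HLH (3) by limma, where 0.218%, 0.277%, 2.31% and 0.341% of all probe sets were.

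The median difference of the 30 genes from GFP was 0.11 in Ac+Sens, 0.11 in Ac, 0.12 in Sens, −0.12 in Ase+E(spl)m3-HLH, 0.10 in Ase and 0.14 in E(spl)m3-HLH. Over all probe sets the medians were 0.01, 0.03, 0.05, 0.07, 0.08 and 0.05 in the same groups. Without Ase+E(spl)m3-HLH replicate 2 the median of the 30 genes in that group was 0.13, and without the array labelled Sens replicate 1 that of Sens was 0.13. These 6 comparisons share the GFP arrays. The share of all probe sets whose arrays lay wholly above GFP was 16.1% in Ac+Sens, 11.1% in Ac, 18.9% in Sens, 24.3% in Ase+E(spl)m3-HLH, 27.7% in Ase and 21.3% in E(spl)m3-HLH. The share wholly below was 10.7%, 8.33%, 8.03%, 7.99%, 8.58% and 10.5% in the same groups. Of the 30 genes 5, 9, 7, 7, 7 and 5 lay wholly above and 4, 1, 2, 3, 2 and 2 wholly below. The 95% interval of a gene's difference had a median width of 0.71 to 0.79 log2 units. Small differences were therefore not resolved for most of the genes.

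**Figure D1:**
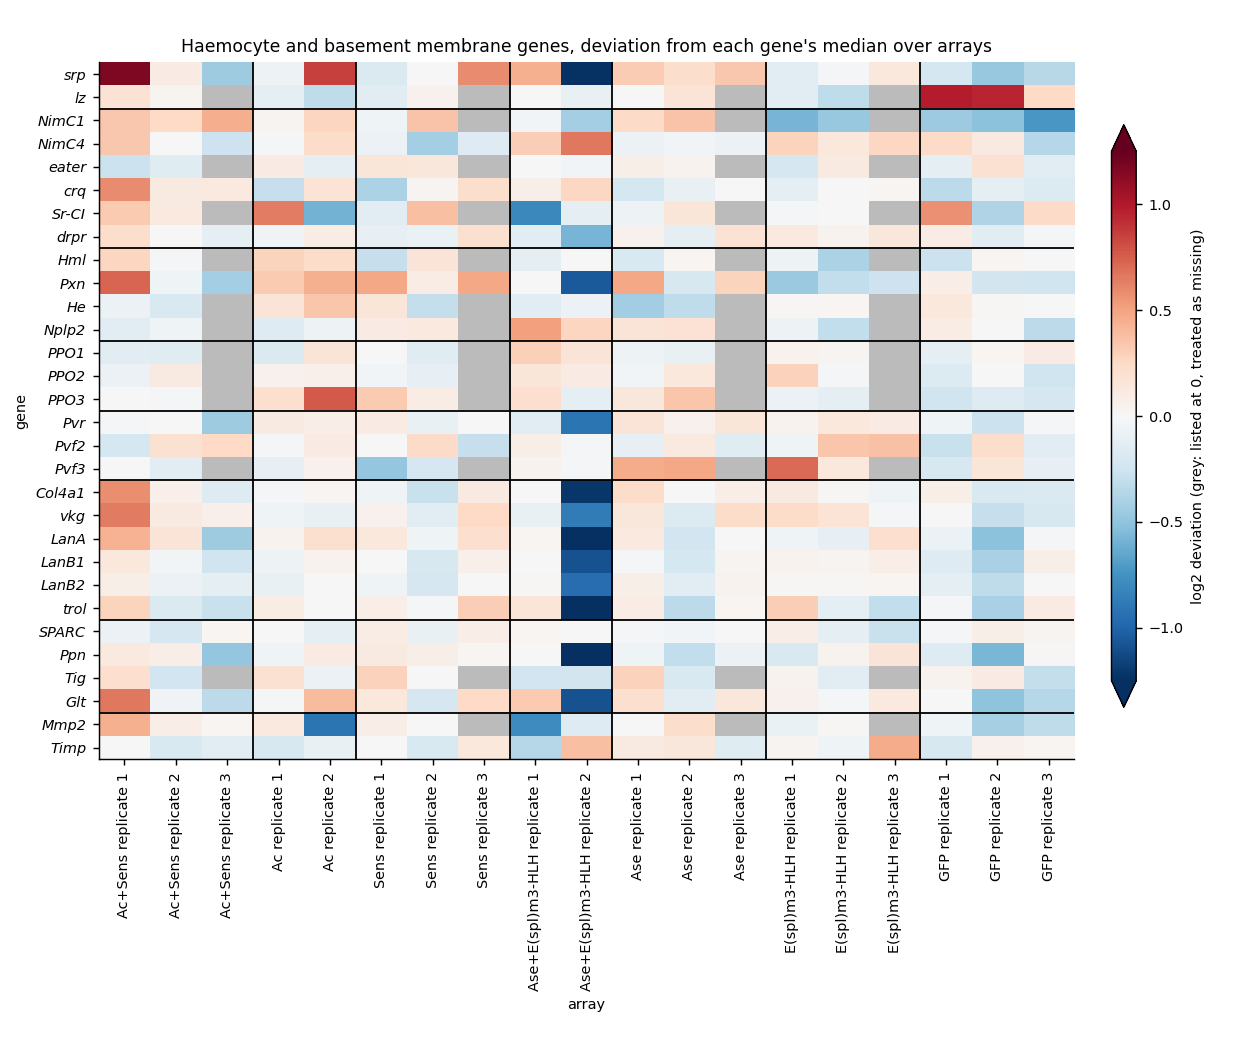
Heat map of the 30 genes (rows, grouped by role as in the text) on the 19 arrays (columns, grouped by transgene), coloured by the log2 deviation from the gene's median over its measured arrays. Grey cells are listed at 0 and were treated as missing; the blue column of Ase+E(spl)m3-HLH replicate 2 runs through Pxn, Pvr and the collagen IV, laminin and perlecan genes, and lz is red on the 3 GFP arrays.

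Among the plasmatocyte receptors, NimC1, a phagocytosis receptor of the Nimrod family and the antigen of a common plasmatocyte antibody, rose in Ac+Sens and in Ase. It was at 5.93, 5.84 and 6.05 in Ac+Sens, 5.63 and 5.86 in Ac, and 5.54 and 5.95 in Sens, where 5.54 is from the array labelled Sens replicate 1. It was at 5.56 and 5.17 in Ase+E(spl)m3-HLH, 5.83 and 5.95 in Ase, 5.01 and 5.12 in E(spl)m3-HLH, and 5.14, 5.08 and 4.87 in GFP. Every measured array of Ac+Sens, Ac, Sens and Ase lay above every E(spl)m3-HLH and GFP array, and both Ase+E(spl)m3-HLH arrays lay between Ase and GFP.

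NimC1 was 1.88-fold higher in Ac+Sens than in GFP (log2 difference 0.91, SE 0.13, adjusted p = 0.00721), with means of 5.94 ± 0.11 and 5.03 ± 0.14 (SD, n = 3 each). The Ac+Sens mean includes 6.05 from replicate 3, the only array with listed zeros on which NimC1 had a value. Without that array the difference was 0.85 (adjusted p = 0.0306). In Ase NimC1 was 1.81-fold higher than in GFP (0.86, SE 0.15, adjusted p = 0.0145), on 2 Ase arrays. The Ac+Sens call held on leaving out each of the 19 arrays in turn (adjusted p from 0.00298 to 0.0389), whereas the Ase call was lost without Ase replicate 1 (0.92, adjusted p = 0.091) or Ase replicate 2 (0.80, adjusted p = 0.139).

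Differences from GFP of 0.71 in Ac (adjusted p = 0.124) and 0.71 in Sens (adjusted p = 0.0961) did not pass the test. Without the array labelled Sens replicate 1, 1 Sens array remained for NimC1, assumed to vary like the other groups, and its difference was 0.92 (adjusted p = 0.0782). With both that array and Ase+E(spl)m3-HLH replicate 2 left out, the differences in Ac (0.71, adjusted p = 0.0243) and Sens (0.92, adjusted p = 0.0228) passed the test. In Sens the call also appeared on leaving out either Ase+E(spl)m3-HLH array alone (adjusted p = 0.0447). In E(spl)m3-HLH the difference was 0.03, with a 95% interval from −0.29 to 0.35, and in Ase+E(spl)m3-HLH it was 0.33 (adjusted p = 0.196). The value in Ase+E(spl)m3-HLH was unstable: it was 0.13 without replicate 1 (adjusted p = 0.68), 0.53 without replicate 2 (adjusted p = 0.0812), and 0.91 and called with quantile normalization (adjusted p = 0.00452). NimC1 was lower in Ase+E(spl)m3-HLH than in Ase by a log2 difference of −0.53 without passing the test (adjusted p = 0.0695), or of −0.33 without replicate 2 (adjusted p = 0.33), and the interaction of Ase and E(spl)m3-HLH was −0.56 (adjusted p = 0.134). The interaction of Ac and Sens was −0.52 (adjusted p = 0.716).

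NimC1 was also the 1 gene of the 30 called in the moderated F-test for any difference among groups (adjusted p = 0.00726), by which 3.62% of all probe sets were called and 8 of the 30 had an unadjusted p under 0.05. Of the 9 other Nimrod genes measured, none was called against GFP in Ac+Sens (differences from −0.31 to 0.17) or in Ase (−0.21 to 0.32). At an unadjusted p under 0.05 there were 0 and 1 of them. In the F-test 1 of the 9, NimB1, was called (adjusted p = 0.0494), and 4 had an unadjusted p under 0.05. Of 18 other plasmatocyte genes, which include most of those, none was called by limma in Ac+Sens (1 at an unadjusted p under 0.05) or in Ase (3), and their median differences were −0.06 in Ac+Sens and 0.12 in Ase. The fat body markers, whose 7 fully measured genes had a mean level of 9.22 to 10.49 on the Ac+Sens arrays, 9.74 to 10.40 on the Ase arrays and 9.11 to 10.14 on the GFP arrays, overlapped between groups. None of the 10 fat body genes measured was called in either group (1 at an unadjusted p under 0.05 in each), and the part of other cell types in the NimC1 difference was not tested.

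**Figure D2:**
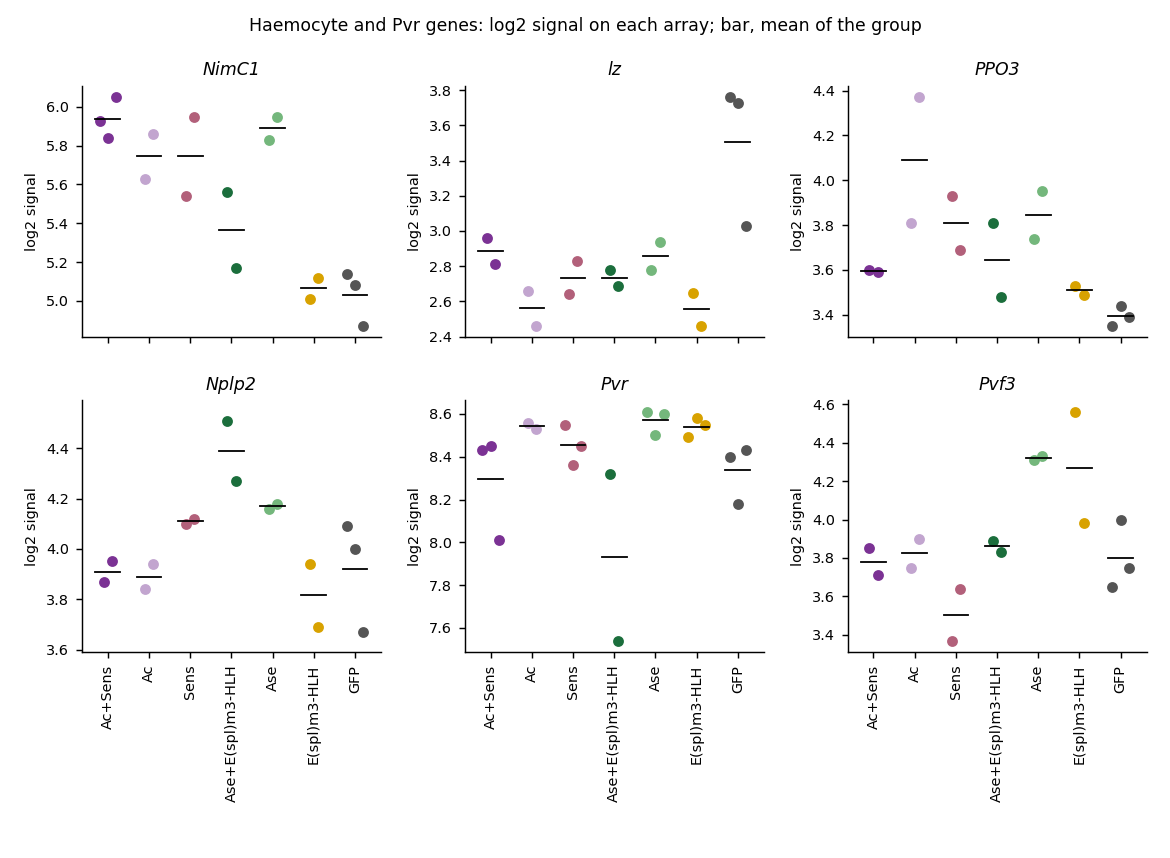
Log2 signal (y axis, a separate scale for each gene) of NimC1, lz, PPO3, Nplp2, Pvr and Pvf3 on each array (points) by group (x axis), with the group mean as a bar; arrays listed at 0 are left out. NimC1 points of Ac+Sens and Ase lie at 5.83 or above and those of GFP at 5.14 or below, and the lz points of GFP lie above those of all other groups.

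The other receptors were not called in any of the comparisons. NimC4 (also known as simu), a receptor for apoptotic cells, ranged from 9.35 to 10.43 and crq, the CD36-family receptor croquemort, from 8.15 to 9.14. The engulfment receptor drpr (draper) ranged from 8.46, on Ase+E(spl)m3-HLH replicate 2, to 9.26. Sr-CI, a class C scavenger receptor, ranged from 4.42 to 5.87 over the 15 arrays with a value, and eater, a receptor for bacteria, from 2.53 to 2.99, where the lowest value on any array without zeros was 1.93. The eater probe set, of a gene that defines plasmatocytes, was thus close to the lowest values of the arrays. crq was at 9.14, 8.66 and 8.67 in Ac+Sens against 8.22, 8.43 and 8.38 in GFP, with no overlap (0.48, SE 0.16, adjusted p = 0.208).

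**Figure D3:**
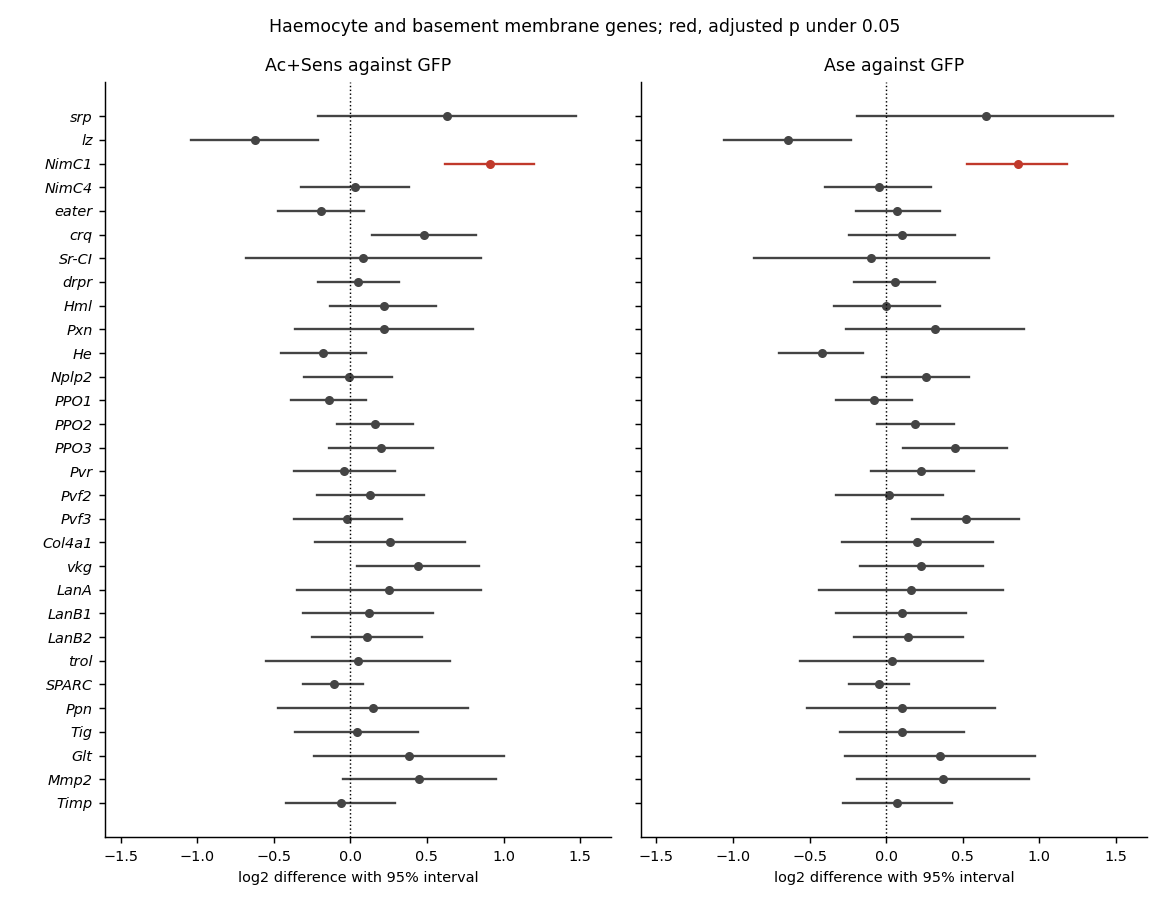
Log2 differences from GFP (x axis, points) with 95% intervals (lines) for the 30 genes (rows) in Ac+Sens (left) and Ase (right). NimC1 is marked as called in both, at 0.91 and 0.86, and the intervals of most other genes include 0.

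The transcription factors of the blood lineage were not called. lz was at 2.96 and 2.81 in Ac+Sens, 2.66 and 2.46 in Ac, 2.64 and 2.83 in Sens, and 2.78 and 2.69 in Ase+E(spl)m3-HLH. It was at 2.78 and 2.94 in Ase and 2.65 and 2.46 in E(spl)m3-HLH, against 3.76, 3.73 and 3.03 in GFP. All 12 measured arrays with another transgene were below all 3 GFP arrays, yet the differences of −0.62 (Ac+Sens) to −0.96 (E(spl)m3-HLH) had adjusted p from 0.0556 to 0.185. Without the array labelled Sens replicate 1 the lz difference in Sens was −0.67 (adjusted p = 0.613). Without GFP replicate 3, the lowest of the GFP arrays, all 6 differences passed the test, with adjusted p from 0.00161 to 0.0127. In every group, leaving out some of the other arrays weakened the difference and raised the adjusted p. Not all arrays did so: without Ase+E(spl)m3-HLH replicate 2 the difference in Ase stayed at −0.64. The smallest differences over the 19 arrays left out in turn were −0.82 in Ac, −0.50 in Ac+Sens and −0.65 in Sens. They were −0.52 in Ase, −0.65 in Ase+E(spl)m3-HLH and −0.83 in E(spl)m3-HLH. Over 10 alternatives of other kinds, the smallest lz differences were −0.05 in Ase+E(spl)m3-HLH, −0.36 in Ac+Sens and −0.53 in Ase. They were −0.57 in Sens, −0.70 in Ac and −0.78 in E(spl)m3-HLH, so the size of the difference depended on the processing. The lz values are dim, and GFP is the same set of arrays in all 6 comparisons.

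srp was at 8.65, 7.58 and 7.04 in Ac+Sens, and the spread within that group exceeded its difference of 0.63 from GFP (adjusted p = 0.557). It was at 7.80, 7.70 and 7.82 in Ase, against 7.26, 7.01 and 7.13 in GFP, with no overlap, and this difference of 0.65 was not called either (SE 0.39, adjusted p = 0.481). Without overlap, 7 of the 30 genes were above GFP in Ase, beside the 27.7% of all probe sets given above.

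Of the secreted and surface proteins of haemocytes, Nplp2, a neuropeptide precursor that circulates in haemolymph, was called in 1 comparison. It was at 4.51 and 4.27 in Ase+E(spl)m3-HLH, 4.16 and 4.18 in Ase, 3.94 and 3.69 in E(spl)m3-HLH and 4.09, 4.0 and 3.67 in GFP. The other groups had 3.87 and 3.95 (Ac+Sens), 3.84 and 3.94 (Ac) and 4.10 and 4.12 (Sens). Both Ase+E(spl)m3-HLH arrays were above all others. Nplp2 rose in Ase+E(spl)m3-HLH against E(spl)m3-HLH by 0.58 (SE 0.14, adjusted p = 0.0423), a comparison in which 1 of the 30 genes was called higher and 1 lower, beside 2.53% and 4.03% of all probe sets.

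The Nplp2 call was lost, with adjusted p between 0.0504 and 0.186, when any of 11 arrays was left out in turn, among them both E(spl)m3-HLH arrays with a value and Ase+E(spl)m3-HLH replicate 1. Without Ase+E(spl)m3-HLH replicate 2, Nplp2 was called against E(spl)m3-HLH (0.70, adjusted p = 0.033) and also against GFP (0.60, adjusted p = 0.0453). After removal of each array's trend with gene span the difference from E(spl)m3-HLH was 0.29 (adjusted p = 0.371). Pxn, the peroxidasin that cross-links collagen IV and marks plasmatocytes, ranged from 5.10, on Ase+E(spl)m3-HLH replicate 2, to 6.88, on Ac+Sens replicate 1. Hml, the clotting protein hemolectin, ranged from 4.10 to 4.78 and He, hemese, from 2.75 to 3.53, and none of these genes was called.

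The prophenoloxidases PPO1, PPO2 and PPO3, the zymogens of melanin synthesis, were not called. PPO3, known from lamellocytes, was at 3.60 and 3.59 in Ac+Sens, 3.81 and 4.37 in Ac, and 3.93 and 3.69 in Sens. It was at 3.81 and 3.48 in Ase+E(spl)m3-HLH, 3.74 and 3.95 in Ase, and 3.53 and 3.49 in E(spl)m3-HLH, against 3.35, 3.44 and 3.39 in GFP. All measured arrays of the other groups were above the 3 GFP arrays, and the differences ranged from 0.12 to 0.69 (adjusted p from 0.203 to 0.819). The PPO3 values are dim and listed at 0 on 4 arrays, and the same 3 GFP arrays enter all 6 of these comparisons. In Ase+E(spl)m3-HLH the PPO3 difference of 0.25 was 0.42 without replicate 2 (adjusted p = 0.203), and in Sens that of 0.42 was 0.30 without the array labelled Sens replicate 1 (adjusted p = 0.885). PPO1 spanned 3.56 to 4.04 and PPO2 4.29 to 4.83 over the arrays with a value.

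Pvr, the receptor tyrosine kinase of PDGF and VEGF type that haemocytes use for survival and migration, was called lower in Ase+E(spl)m3-HLH than in either single factor, with 1 of the 2 arrays low. It was at 8.32 and 7.54 in Ase+E(spl)m3-HLH, 8.61, 8.50 and 8.60 in Ase, and 8.49, 8.58 and 8.55 in E(spl)m3-HLH. It was at 8.43, 8.45 and 8.01 in Ac+Sens, 8.56 and 8.53 in Ac, 8.55, 8.36 and 8.45 in Sens, and 8.40, 8.18 and 8.43 in GFP. The value of 7.54, on Ase+E(spl)m3-HLH replicate 2, was the lowest of the 19, and replicate 1 lay within the range of GFP.

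Pvr fell by a log2 difference of −0.64 against Ase (SE 0.17, adjusted p = 0.0462) and of −0.61 against E(spl)m3-HLH (SE 0.17, adjusted p = 0.0491). It was the 1 gene of the 30 called against Ase, a comparison in which 5.6% of all probe sets were called, 4.3% as lower. Without Ase+E(spl)m3-HLH replicate 2 the differences were −0.25 (adjusted p = 0.398) and −0.22 (adjusted p = 0.436), and with the trend with gene span removed −0.20 (adjusted p = 0.155) and −0.18 (adjusted p = 0.186). Both calls lay close to the threshold: on leaving out each of the 19 arrays in turn, the call against Ase was lost 16 times and that against E(spl)m3-HLH 17 times. The interaction of −0.84 was not called (adjusted p = 0.0544).

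The ligands of Pvr were measured by probe sets of Pvf2 and Pvf3. Pvf2 ranged from 7.33 to 7.99 with overlapping groups. Pvf3 was at 3.85 and 3.71 in Ac+Sens, 3.75 and 3.90 in Ac, 3.37 and 3.64 in Sens, and 3.89 and 3.83 in Ase+E(spl)m3-HLH. It was at 4.31 and 4.33 in Ase and 4.56 and 3.98 in E(spl)m3-HLH, against 3.65, 4.0 and 3.75 in GFP. The Ase arrays lay above GFP, by 0.52 (adjusted p = 0.157), and the interaction of Ase and E(spl)m3-HLH was −0.93 (adjusted p = 0.0534); neither passed the test. Another Pvf3 probe set was called lower in Ase+E(spl)m3-HLH than in Ase (−0.82, adjusted p = 0.0302), where the one used here gave −0.46 (adjusted p = 0.126).

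Genes of the collagen IV chains (Col4a1 and vkg), the laminin chains (LanA, LanB1 and LanB2) and perlecan (trol) were not called in any comparison. Their median difference from GFP was 0.18 in Ac+Sens, 0.13 in Ac, 0.17 in Sens, 0.15 in Ase and 0.19 in E(spl)m3-HLH. For Ac+Sens the 95% intervals of the 6 genes reached from −0.55 to 0.85, or from −0.34 to 0.76 when Ase+E(spl)m3-HLH replicate 2, which enters the shared spread, was left out. In Ase+E(spl)m3-HLH the median was −0.43, and without replicate 2 it was 0.16.

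vkg (viking), the gene of these 6 with the smallest F-test p, was at 7.61, 7.07 and 7.02 in Ac+Sens, 6.91 and 6.87 in Ac, and 7.01, 6.83 and 7.21 in Sens. It was at 6.87 and 6.09 in Ase+E(spl)m3-HLH, 7.10, 6.79 and 7.19 in Ase, and 7.19, 7.13 and 6.95 in E(spl)m3-HLH, against 6.96, 6.67 and 6.76 in GFP. The Ac+Sens arrays were all above GFP, by 0.44 on average (SE 0.19, adjusted p = 0.347). Against E(spl)m3-HLH, both Ase+E(spl)m3-HLH arrays were lower (−0.61, adjusted p = 0.0787), and without replicate 2 the difference was −0.22 (adjusted p = 0.597). Another probe set of trol, with a mean of 4.98 and listed at 0 on 4 arrays, was called higher in that comparison (0.60, adjusted p = 0.0355). The one used here gave −0.55 (adjusted p = 0.271), and 0.19 without Ase+E(spl)m3-HLH replicate 2, so its opposite sign rests on that array. Other trol probe sets measured on all arrays gave −1.63 (adjusted p = 0.0678) and −0.50 (adjusted p = 0.306). The remaining ones, also listed at 0 on 4 arrays, ran from −0.37 to 0.22.

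**Figure D4:**
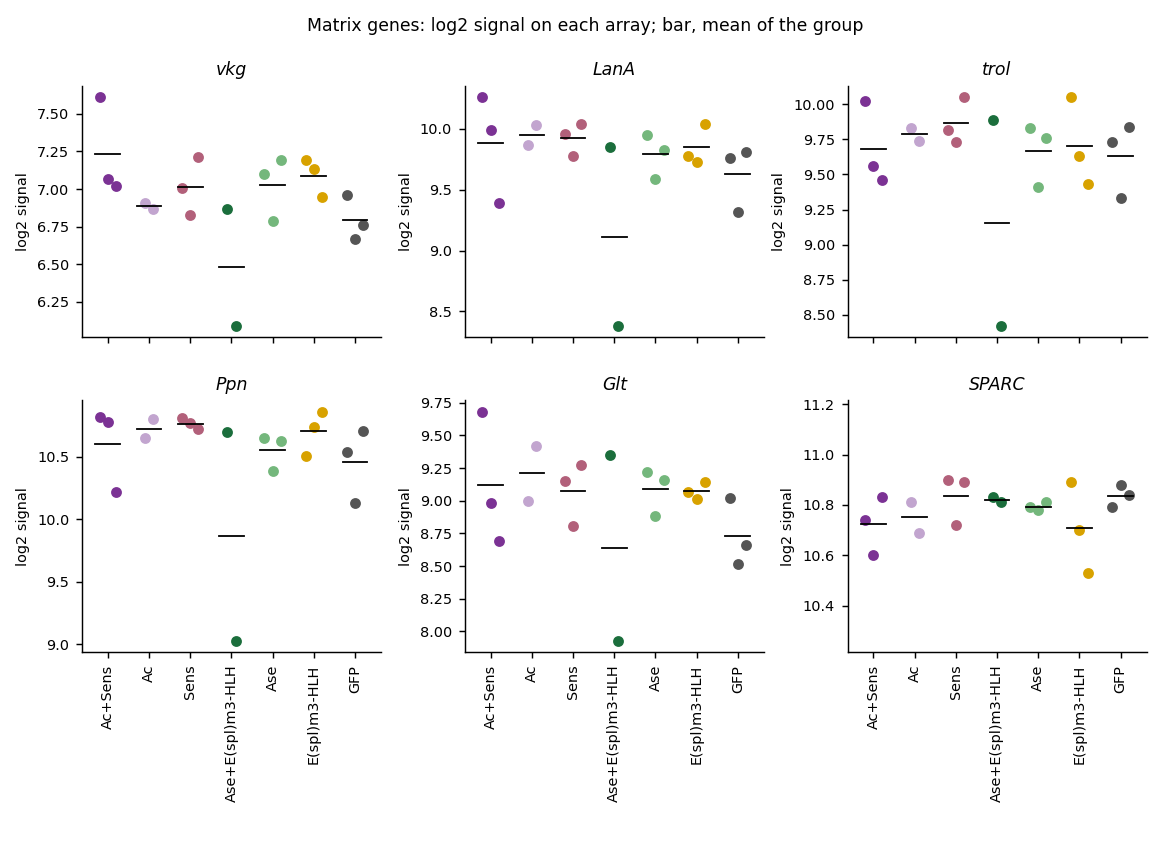
Log2 signal (y axis, a separate scale for each gene) of vkg, LanA, trol, Ppn, Glt and SPARC on each array (points) by group (x axis), with the group mean as a bar. For every gene shown except SPARC the lowest point is Ase+E(spl)m3-HLH replicate 2, for example 8.38 for LanA and 9.03 for Ppn.

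Among other matrix proteins no gene was called in any comparison. Ppn (papilin), a large matrix proteoglycan, was at 10.82, 10.78 and 10.22 in Ac+Sens, 10.65 and 10.80 in Ac, and 10.81, 10.77 and 10.72 in Sens. It was at 10.70 and 9.03 in Ase+E(spl)m3-HLH, 10.65, 10.39 and 10.63 in Ase, 10.51, 10.74 and 10.86 in E(spl)m3-HLH, and 10.54, 10.13 and 10.71 in GFP. Replicate 1 of Ase+E(spl)m3-HLH thus lay among the other groups while replicate 2 was far below. Glt (glutactin), a basement membrane glycoprotein, ranged from 7.93 on the same array to 9.68. SPARC, a collagen-binding protein needed for collagen IV secretion and stability, stayed between 10.53 and 10.90 on all arrays, and Tig (tiggrin), an integrin ligand, between 4.17 and 4.76 on 15.

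Mmp2, a membrane-anchored matrix metalloproteinase, was at 6.09, 5.73 and 5.67 in Ac+Sens, 5.77 and 4.73 in Ac, and 5.73 and 5.64 in Sens. It was at 4.86 and 5.48 in Ase+E(spl)m3-HLH, 5.65 and 5.86 in Ase, 5.56 and 5.66 in E(spl)m3-HLH, and 5.59, 5.23 and 5.33 in GFP. The Ac+Sens arrays were above GFP (0.45, SE 0.23, adjusted p = 0.466), and the Ac arrays spanned over 1 log2 unit. Timp, the inhibitor of these proteases, ranged from 7.08 to 7.90. Neither gene was called in any comparison.

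Of the 17 genes measured on all arrays, 12 had their lowest value on Ase+E(spl)m3-HLH replicate 2, where their median deviation was −0.95, and 10 had their highest on Ac+Sens replicate 1, where it was 0.28. For the collagen IV, laminin and perlecan genes the deviations were −1.15 and 0.36. On Ase+E(spl)m3-HLH replicate 2 the deviation of all genes fell with the span of the transcription unit (Spearman −0.687 over 6082 genes, which are not independent). With this trend removed from each array, the 17 genes were lowest there in 7 cases, with a median of −0.18. A median of −0.44 was left for the collagen IV, laminin and perlecan genes.

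Members did not all follow span on that array. Glt, with a span of 4107 bases, deviated by −1.09, whereas Timp deviated by 0.38 and Pvf2, with 15100 bases, by −0.00. NimC4, with 1282 bases, was 0.66 above its median there. On the same array the mean level of 11 myoblast and muscle markers was 6.56, against 7.73 to 8.42 on the other 18 arrays. That of 10 epidermal markers was 8.33, against 8.98 to 9.45, and that of the 7 fat body markers was 9.93, inside their range of 9.11 to 10.49. On Ac+Sens replicate 1 the fat body markers had the highest mean of the 19 arrays, 10.49. The part of other cell types in the low and high matrix values was not tested.

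**Figure D5:**
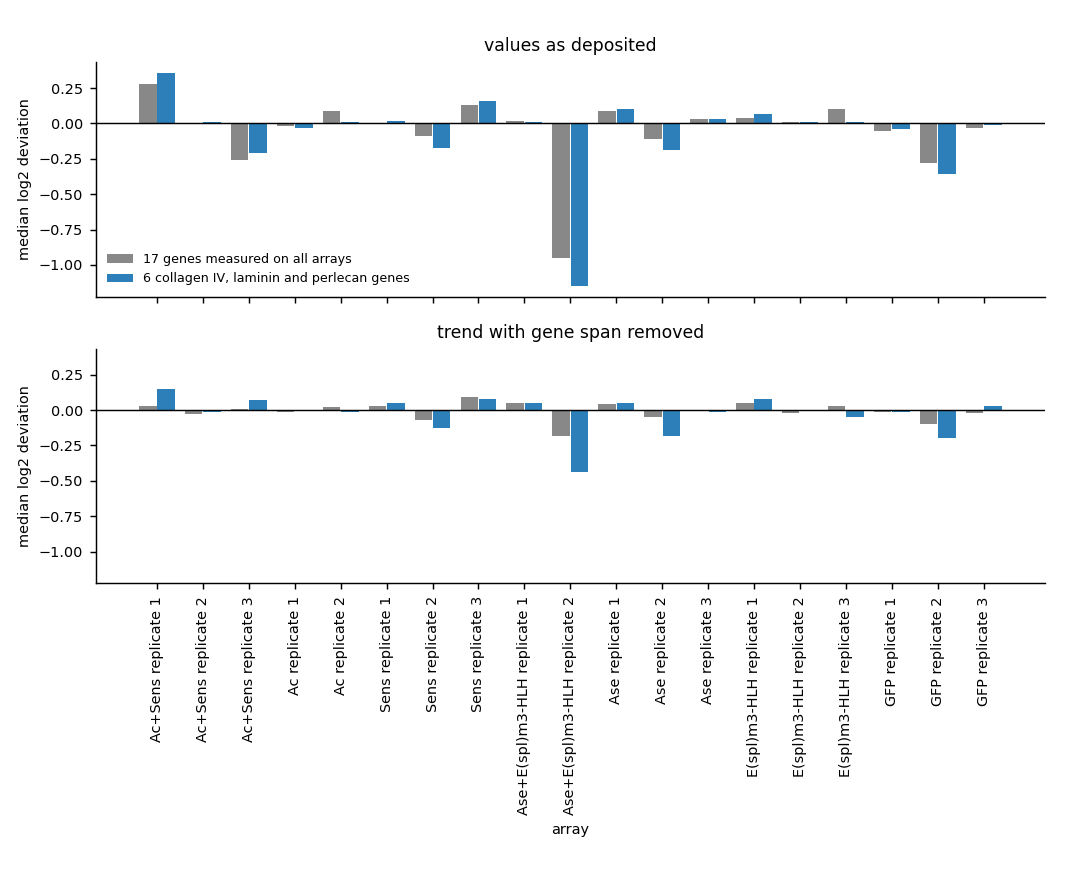
Median log2 deviation from the gene's median over arrays (y axis) on each of the 19 arrays (x axis) for the 17 genes measured on all arrays (grey bars) and the 6 collagen IV, laminin and perlecan genes (blue bars), as deposited (top) and with the trend with gene span removed (bottom). The bars of Ase+E(spl)m3-HLH replicate 2 reach −0.95 and −1.15 at the top, and −0.18 and −0.44 at the bottom.

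Combining Ac with Sens was set against either factor alone. None of the 30 genes was called by limma against Ac (3 at an unadjusted p under 0.05) or against Sens (1), where 0.0799% and 0.0533% of all probe sets were called. The median difference of the 30 genes was −0.04 against Ac and 0.04 against Sens, beside −0.01 and −0.04 over all probe sets. Without the array labelled Sens replicate 1 the median against Sens was −0.01. The interaction of Ac and Sens was called for none of the 30 (3 at an unadjusted p under 0.05), and for 0.0426% of probe sets.

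For Ase+E(spl)m3-HLH the median difference of the 30 genes was −0.42 against Ase and −0.19 against E(spl)m3-HLH, beside 0.01 and 0.04 over all probe sets. Without replicate 2 these medians were −0.00 and 0.01. The interaction of Ase and E(spl)m3-HLH was called for none (10 at an unadjusted p under 0.05) and for 3.95% of probe sets. Leaving out either Ase+E(spl)m3-HLH array leaves 1 array for the group, so counts of called genes are not given here for those fits. When arrays were left out in turn, calls moved over all probe sets as well as among the 30 genes.

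Related genes were followed in lists drawn up with earlier results of these data known. In the Pvr pathway list, with 5 genes measured, Cbl was called. Cbl encodes a ubiquitin ligase that downregulates receptor tyrosine kinases. It was at 7.89 and 7.67 in Ase+E(spl)m3-HLH, 8.26, 8.42 and 8.18 in Ase, 9.09, 9.29 and 9.18 in E(spl)m3-HLH, and 8.92, 8.89 and 8.91 in GFP. The remaining groups lay between 8.81 and 9.06, so that the Ase and Ase+E(spl)m3-HLH arrays were below all others. The difference of Ase+E(spl)m3-HLH from E(spl)m3-HLH was −1.41 (adjusted p = 1.69e-06). The interaction of Ase and E(spl)m3-HLH was −0.79 (adjusted p = 0.0134).

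Cbl fell by a log2 difference of −1.13 in Ase+E(spl)m3-HLH (adjusted p = 8.97e-06) and of −0.62 in Ase (adjusted p = 0.00138) against GFP. Without Ase+E(spl)m3-HLH replicate 2 these were −1.02 (adjusted p = 0.000126) and −0.62 (adjusted p = 0.000656), the first on 1 array whose spread is taken from the other groups. Against Ase alone, Cbl in Ase+E(spl)m3-HLH was lower by −0.51 (adjusted p = 0.0192), a call that was lost without replicate 2 (−0.40, adjusted p = 0.0675), without Ase replicate 1 (adjusted p = 0.0695) or without Ase replicate 2 (adjusted p = 0.0645). With the trend with gene span removed, Cbl was still called in Ase+E(spl)m3-HLH (−0.92, adjusted p = 0.00242) and in Ase (−0.70, adjusted p = 0.00802) against GFP, and not against Ase (−0.23, adjusted p = 0.295).

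In the plasmatocyte list, Tep4, a thioester-containing protein, fell in Ase+E(spl)m3-HLH, where it was at 8.54 and 8.49, against 9.26, 8.89 and 9.10 in GFP (−0.57, SE 0.12, adjusted p = 0.0246). With the trend with gene span removed this was −0.36 (adjusted p = 0.155), and the call was lost without GFP replicate 1 (adjusted p = 0.0967) or GFP replicate 3 (adjusted p = 0.0735). It was 1 of 18 genes called there, beside 2.31% of all probe sets. Against E(spl)m3-HLH, Tep4 (−0.59, adjusted p = 0.0208), Tep3 (−0.56, adjusted p = 0.0423) and ush (−0.63, adjusted p = 0.0477) were called lower in Ase+E(spl)m3-HLH. In the F-test 3 of the 18 were called, Tep4 (adjusted p = 0.0361), NimB1 and pes, beside 3.62% of all probe sets. pes, a CD36-family receptor of haemocytes, had the smallest of these p (adjusted p = 0.00792). It was at 5.10, 4.87 and 5.26 in Ac+Sens and at 6.34, 5.06 and 4.87 in Sens, where 6.34 is from the array labelled Sens replicate 1, against 6.16, 6.04 and 6.20 in GFP.

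In the engulfment list of 9 measured genes, Ced-12, a partner of the Rac activator in corpse uptake, rose in Ac+Sens. It was at 7.67, 7.49 and 7.64 there, against 7.24, 7.24 and 7.20 in GFP (0.37, SE 0.07, adjusted p = 0.0171). Leaving out any GFP array, Ac+Sens replicate 1 or Ac+Sens replicate 3 ended this call (adjusted p from 0.0532 to 0.0938). Among 18 other matrix genes and matrix receptors, none was called against GFP in Ac+Sens, Ac, Sens, Ase or E(spl)m3-HLH, and Lar, a receptor tyrosine phosphatase, was called lower in Ase+E(spl)m3-HLH (−0.93, SE 0.22, adjusted p = 0.0367). Without Ase+E(spl)m3-HLH replicate 2 the Lar difference was −0.37 (adjusted p = 0.142), and the call was lost on leaving out any of 10 arrays. The median of these 18 genes there was −0.36. The 8 measured genes of collagen maturation and secretion had no call by limma in any comparison, with at most 6 at an unadjusted p under 0.05 in one of them. Their median differences from GFP were 0.02 in Ac+Sens, −0.12 in Ase+E(spl)m3-HLH and 0.09 in Ase.

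Of 15 genes of crystal cells, lamellocytes and melanisation, Spn27A, a serpin that restrains the melanisation cascade, rose in Ase+E(spl)m3-HLH (0.46, SE 0.10, adjusted p = 0.0314). The call was lost without Ase+E(spl)m3-HLH replicate 1 (0.29, adjusted p = 0.0927), GFP replicate 1 (adjusted p = 0.096) or GFP replicate 2 (0.41, adjusted p = 0.0656). No other gene of that list was called against GFP in any group. Among markers of other cell types, none of 11 myoblast, 8 glia and 10 epidermal genes was called against GFP. In Ase+E(spl)m3-HLH against Ase, the epidermal genes crb, shg and Tsf2, the myoblast gene htl and the glia gene loco were called lower. Against E(spl)m3-HLH these were crb, shg, Tsf2, cora and loco. Over all lists 10 calls were made against Ase and 20 against E(spl)m3-HLH, all lower. Values without replicate 2 are not given for most of these calls. Against GFP, of 9 trachea markers, btl, an FGF receptor, was called higher in Ase+E(spl)m3-HLH (0.53, adjusted p = 0.0384) and dnt, a Ryk-family receptor, in E(spl)m3-HLH (0.62, adjusted p = 0.0394). Of 9 notum patterning genes, ara, an Iroquois homeobox gene, was called lower in Ase+E(spl)m3-HLH (−0.65, adjusted p = 0.045). Of the 19 arrays left out in turn, 10 ended the btl call, 11 the dnt call and 14 the ara call. Without Ase+E(spl)m3-HLH replicate 2 the ara difference was −0.50 (adjusted p = 0.13).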

How the data were processed

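RNA of 19 pooled notum samples was hybridised to Affymetrix arrays, and the sample labels gave the groups. What the authors deposited are log2 signals, 1 per probe set and array, made with RMA per the submitters' processing notes. Its version and the rule behind the listed zeros are not known here. Precision rests on the number of arrays.

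The platform annotation names 1 gene for 13647 of the 18769 probe sets, several for 402 and none for 4720. Means for choosing a probe set used the 15 arrays without zeros, and gene spans came from RefSeq. Tests used limma 3.58.1 (R 4.3.3), with 7 group means in 1 model, two-sided p-values and Benjamini-Hochberg adjustment over all probe sets of a comparison; an adjusted p is from this model, or from the same model refitted under the alternative that its sentence names. The script was tested on simulated data.

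The genes and lists were chosen with earlier results of these data known. Array values are given for genes called in any test and for the gene of each role with the smallest F-test p. Genes outside the 30 are named only if called. Array values of srp and crq were added after they were seen. Alternatives changed scaling, filters, zeros, blocks, the prior, the probe set rule and the arrays used. The labels state no pairing by replicate number, and none was used in the main model. Over 52 same-number pairs the correlation of deviations ran from −0.42 to 0.55, and 15 exceeded 0.1. Over 102 different-number pairs it ran from −0.71 to 0.71, and 31 exceeded 0.1. These correlations cannot decide whether arrays of the same number shared a batch, and the 4 arrays with listed zeros are all replicate 3.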

Additional observations from a re-analysis of the deposited data

How the results depend on the processing

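Counts below are genes of the 30 called. With replicate number as a block there was 1 call in Ac, Sens, E(spl)m3-HLH, Ase+E(spl)m3-HLH, both interactions and Ase+E(spl)m3-HLH against E(spl)m3-HLH, 2 in Ase, Ac+Sens and the F-test, and 0 in Ase+E(spl)m3-HLH against Ase. Under this block lz passed in all 6 groups against GFP (adjusted p from 0.00237 to 0.0145). Among the other alternatives the lz difference shrank to −0.05 in Ase+E(spl)m3-HLH and to −0.36 in Ac+Sens. The labels state no pairing by replicate number, and whether the numbers mark a batch is not known. With the block and the span trend removed, counts were 2 in Ase, Ac+Sens and the F-test, 1 in E(spl)m3-HLH and the Ase interaction, and 0 in Ase+E(spl)m3-HLH against Ase and against E(spl)m3-HLH. With the span trend removed alone, these last counts were also 0. With zeros kept, counts were 0 in Ase, Ac+Sens, the F-test and Ase+E(spl)m3-HLH against either factor, and NimC1 reversed to −1.11 in Ase, −1.20 in Sens and −1.66 in E(spl)m3-HLH, since 1 array of each is then at 0. With probe sets measured on all arrays, which leave NimC1 out, counts were 0 in Ase, Ac+Sens and the F-test and 1 for the Ase interaction.

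With arrays centred, counts were 1 in E(spl)m3-HLH, 2 in Ase+E(spl)m3-HLH, 4 against Ase, 4 for the Ase interaction and 3 in the F-test. Quantile normalization gave 1 in Sens, 7 in Ase+E(spl)m3-HLH and 0 against Ase. A mean of at least 5 gave 2 against Ase and 1 for the interaction. Fits of the groups compared alone gave 2 in Ase, and 0 in Ase+E(spl)m3-HLH against Ase and against E(spl)m3-HLH. A trended robust prior gave 1 in E(spl)m3-HLH and 1 in Ase+E(spl)m3-HLH. Without both arrays that stood apart there was 1 in Ac, 1 in Sens, 0 against Ase, 1 against E(spl)m3-HLH and 2 in the F-test. The mean of all probe sets of a gene gave 0 against Ase and 1 against E(spl)m3-HLH. The cause of these moves was not tested.

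Leaving out each array in turn, counts ran from 0 to 1 in Ac, Sens, E(spl)m3-HLH and the Ac interaction, 0 to 2 in Ase, 1 to 2 in Ac+Sens, 0 to 10 in Ase+E(spl)m3-HLH, 0 to 14 against Ase, 0 to 10 against E(spl)m3-HLH, 0 to 13 for the Ase interaction and 1 to 13 in the F-test. All of these maxima of 10 or more are without Ase+E(spl)m3-HLH replicate 1. The NimC1 difference in E(spl)m3-HLH turned to −0.06 with arrays centred, −0.00 with the span trend removed, with or without the block, −0.05 without GFP replicate 3 and −0.02 without E(spl)m3-HLH replicate 2. On leaving out 1 array it was at most 0.08, and with quantile normalization 0.20. The Pvr difference in Ac+Sens, lowest at −0.12, turned to 0.01 without GFP replicate 3 and 0.11 without Ac+Sens replicate 3. With 2 or 3 arrays in a group, and dim genes on fewer, small differences were not resolved.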
